A study of Homo sapiens with 60 samples.

Results

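Human HepG2 cells kept for 24 h in 6 herbal water extracts at 20 µg/mL were compared with cells kept in vehicle, to find the genes that set extract wells apart from vehicle wells whatever the herb. HepG2 is a hepatocellular carcinoma line that expresses many liver genes. The comparison used 21 of the 60 RNA-seq libraries of the series, 18 from extract wells and 3 from vehicle wells. The extracts, with 3 libraries each, were the single herbs Astragali Radix, Cinnamomi Cortex, Cnidii Rhizoma and Rehmanniae Radix Preparata, and the formulas Sagunja-tang and Samul-tang. The sample labels give the vehicle as 0.1% DMSO, and the series' design text gives 2%. The solvent of the extract wells is not given in the sources used here. Every sample title, of vehicle and extract alike, carries the label BatchB. The sample codes place Cnidii and Rehmanniae in a set numbered 5, Cinnamomi and Astragali in set 6 and the 2 formulas in set 7. They place the vehicle libraries in none of these sets. Extract, solvent and set therefore cannot be told apart as the source of any difference from vehicle. Nothing in the labels says that the 3 libraries of a group came from separate cultures, so p-values measure the spread between libraries, which may be technical. Palmul-tang had 1 library at 20 µg/mL, which is given only as a value.

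Cells answer damage to proteins, stress in the endoplasmic reticulum, low oxygen and oxidants through separate programmes of transcription. Heat shock factors raise HSP70 chaperones, which refold proteins in the cytosol, and the unfolded protein response raises chaperones and degradation factors of the endoplasmic reticulum. Hypoxia-inducible factors raise glycolytic enzymes, and NRF2 raises antioxidant and detoxifying enzymes. In hepatocytes, insulin signalling holds down FOXO targets such as IGFBP1, and E2F factors drive the genes of DNA replication in dividing cells. Members of each programme are described below by their roles.

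The 21 libraries held 18.5 to 33.1 M counts, with 25.4, 29.1 and 27.4 M in the 3 vehicle libraries. Total count and the number of genes with at least 10 counts gave exact two-sided permutation p = 0.676 and p = 0.856 between groups. The share of counts in cytosolic ribosomal protein genes was 3.20% ± 0.206 (SD, n = 3) with vehicle and 2.99% ± 0.114 (SD, n = 18) with extract, exact permutation p = 0.0203 and 0.142 after adjustment over 7 library measures. The mitochondrial share was 15.2% and 16.2%, exact permutation p = 0.0759 and adjusted p = 0.177. Without vehicle replicate 3 both differences passed the adjusted threshold, the ribosomal one at -0.317 and the mitochondrial one at 1.69 percentage points. All 10 hepatocyte markers were expressed, with ALB at 10883 to 11536 CPM (counts scaled to library size) with vehicle and 7916 to 11872 with extract. Of 23 markers of stellate, endothelial, immune and bile duct cells, 14 stayed under 1 CPM in every library, and COL1A2, KDR, MARCO and CFTR had no count. Their summed level was 1770 to 1944 CPM with vehicle and 1880 to 2271 with extract, and without LYZ, SOX9 and SPP1, which HepG2 expressed at 135 CPM or more, it was 138 to 141 and 126 to 156 CPM. By principal components 1 library stood apart, Samul-tang replicate 2. On the first principal component (10.5% of the variance) it lay at 30.0, with vehicle at -26.3 to -13.9 and the other 17 extract libraries between them and it, at -10.8 to 11.5. On the second (9.0%) it lay at 29.1, on the side of the vehicle libraries at 12.8 to 19.2, while the other 17 lay between -13.9 and 0.522.

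Of 16167 genes tested, 2740 differed between the mean of the 6 extracts and vehicle at an adjusted p under 0.05 (16.9%), 1354 higher (8.38%) and 1386 lower (8.57%). A gene was then said to separate the groups when it passed that test and all 18 extract libraries lay on the same side of all 3 vehicle libraries. By this rule 766 genes separated (4.74%), 364 higher with extract (2.25%) and 402 lower (2.49%). Of these, 210 also passed the test for each of the 6 extracts alone, 128 higher (0.792%) and 82 lower (0.507%). The changes were small. The median fold was 1.21 for genes that separated upward and 1.17 for those that separated downward, 65 genes reached 1.5-fold and 20 reached 2-fold, and only 3 of the 20 had a mean of 2 CPM or more. The rule fixes that the 6 extracts, which share the 3 vehicle libraries, moved in the same direction. The counts rested on those 3 libraries. Without vehicle replicate 1 the test called 1326 genes and without replicate 2 it called 1559, and the separating genes called in each of the 6 extracts numbered 106 without replicate 2. With vehicle replicate 1 left out, 787 genes separated and 587 of them were among the 766, and without replicate 3, 1243 separated, 677 of them among the 766. Leaving out Samul-tang replicate 2 gave 987 genes, and leaving out the replicate 1 libraries of set 6 gave 1000. With fewer libraries the demand for no overlap is easier to meet, so a rise in these separating counts is partly built into the rule.

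Single extracts passed the test against vehicle in unequal numbers of genes. Astragali had 635 (3.93%), Cnidii 1050 (6.49%), Cinnamomi 1157 (7.16%), Rehmanniae 1161 (7.18%), Sagunja-tang 1837 (11.4%) and Samul-tang 3353 (20.7%). These counts changed on leaving out 1 library. The lowest were 247 in Astragali without its replicate 2 and 423 in Cinnamomi without its replicate 3. Without vehicle replicate 1 they were 498 in Cnidii and 1927 in Samul-tang, and without vehicle replicate 2, 575 in Rehmanniae and 964 in Sagunja-tang. Without Samul-tang replicate 2, the library that stood apart, Samul-tang had 1945 genes, fewer than the 2259 of Sagunja-tang. A test among the 6 extracts themselves, which does not use vehicle, called 253 genes (1.56%), and among the genes that separated it called 16 (2.09%). The same test among the 3 sets called 494 genes (3.06%), of which 35 separated, or 4.57% of the 766. Without Samul-tang replicate 2 the first of these tests called 133 genes and without its replicate 3 it called 575, and the second called 258 without Sagunja-tang replicate 2.

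The strongest shared increases included IGFBP1, CEBPB and HSPA1A. Genes were ranked by the extract with the least change, among genes of at least 2 CPM, and the 14 highest by this rule all passed the test in each of the 6 extracts. IGFBP1, a liver protein that binds insulin-like growth factors in blood and is repressed by insulin (chr7:45888357-45893668), was at 108, 119 and 136 CPM in the vehicle libraries. It reached 169 to 310 CPM with extract, with a median of 275. Every extract library lay above every vehicle library, and the log2 fold change was 1.01 ± 0.145 (SE), adjusted p = 3.04e-06. It was largest in Cnidii (1.28) and smallest in Sagunja-tang (0.63), and it differed among the 3 sets (adjusted p = 0.028) but was not called among the 6 extracts (adjusted p = 0.13). DEPP1, another FOXO target, which regulates autophagy (chr10:44970981-44978810), was at 9.83, 11.3 and 13.4 CPM with vehicle and 13.96 to 25.1 with extract, median 20.0. Here the lowest extract library lay just above the highest vehicle library, and the log2 fold change was 0.77 ± 0.104 (SE), adjusted p = 1.08e-06. FOXO targets did not rise as a group. Of 6 FOXO or insulin targets tested in the gluconeogenesis list below, 1 was called higher and 3 lower, with a median log2 fold change of -0.145. Over all genes tested, 8.38% were called higher and 8.57% lower.

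CEBPB, a bZIP transcription factor of liver metabolism and the acute phase (chr20:50190734-50192689), was at 19.1, 22.5 and 23.4 CPM with vehicle. With extract it was at 34.7 to 56.3 CPM, median 40.2, so the groups were far apart. The log2 fold change was 0.94 ± 0.098 (SE), adjusted p = 3.85e-09, and the 6 extracts gave 0.81 to 1.05. NR0B2 (SHP), a nuclear receptor that represses bile acid synthesis (chr1:26911489-26913966), was at 41.7, 40.3 and 43.3 CPM with vehicle and 51.4 to 78.6 with extract, median 66.2, with no overlap. Its log2 fold change was 0.68 ± 0.086 (SE), adjusted p = 2.34e-07. SOCS1, an inhibitor of cytokine signalling, was at 3.90 to 4.71 CPM with vehicle and 5.87 to 11.1 with extract (log2 fold change 0.82 ± 0.146, SE). HES4, a transcriptional repressor of the Notch pathway, was at 3.48 to 3.94 CPM and 5.25 to 10.3 (0.89 ± 0.174). FILIP1L, a regulator of cell migration, was at 20.3 to 24.4 CPM and 30.2 to 41.2 (0.72 ± 0.082). FAM13A, PPP2R2C, PRCD, SYCP3 and GTF2IRD2B, also among the 14, were low in abundance, with log2 fold changes of 0.64 to 0.89.

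**Figure D1:**
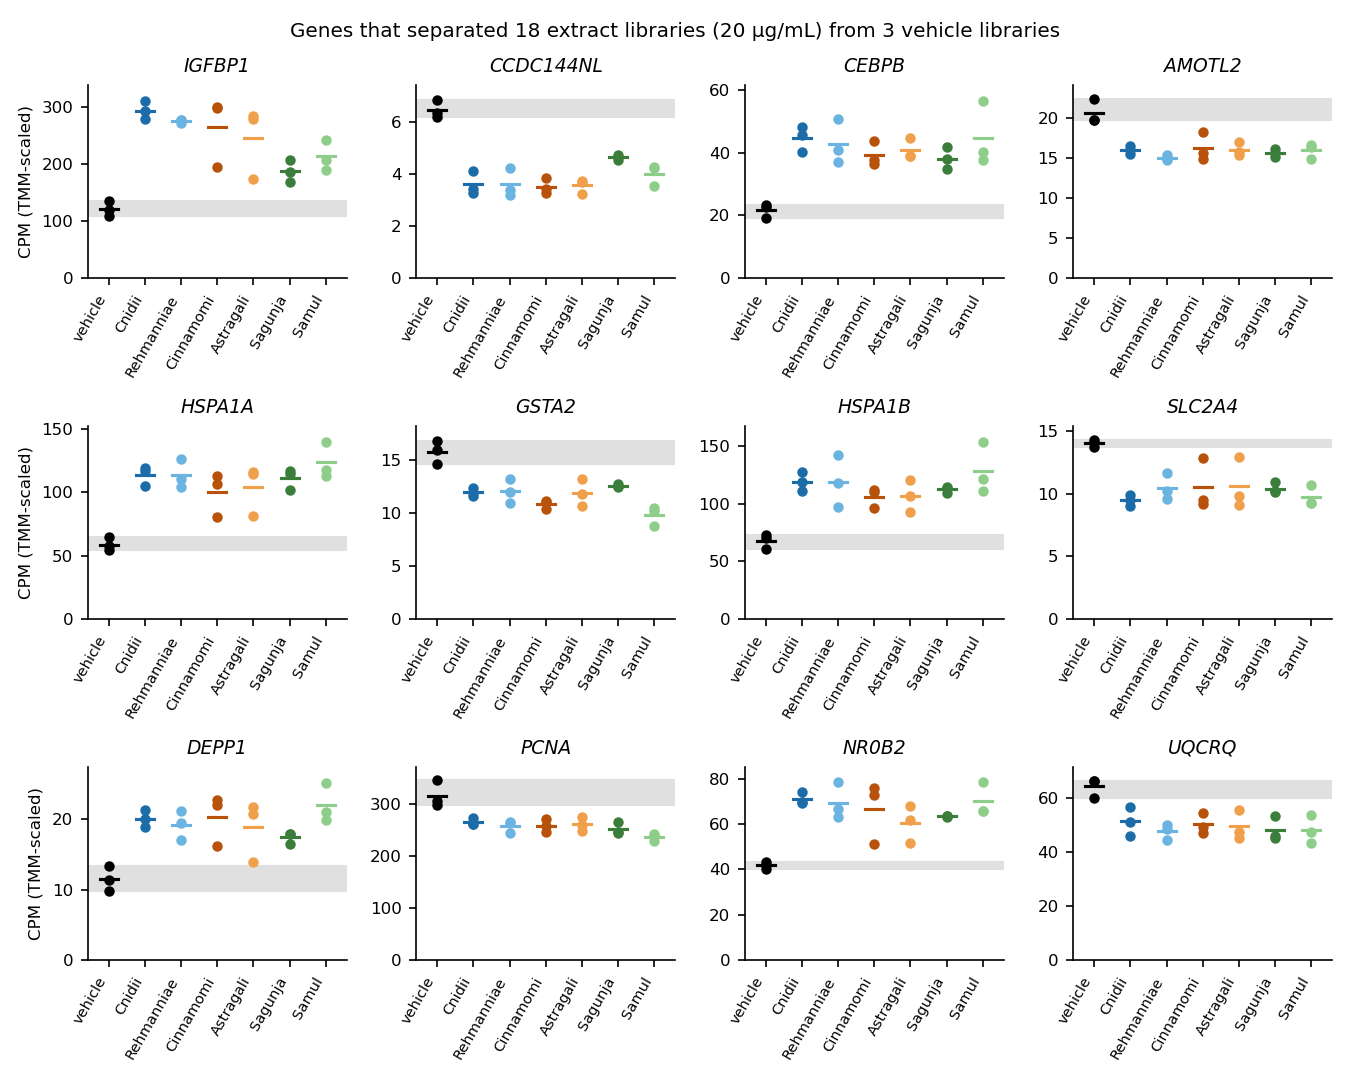
Level of 12 genes in each library, in CPM scaled by TMM factors, from 0, for 3 vehicle libraries (black) and 3 libraries of each extract at 20 µg/mL (coloured by extract). Points are libraries, short lines are group means, and the grey band is the range of the vehicle libraries, which no extract point enters. IGFBP1 was at 108 to 136 CPM with vehicle and 169 to 310 with extract.

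SOX9 separated with a small error, as did NFAT5 and MBNL2, which were chosen after their values were seen. SOX9, a transcription factor of bile duct and progenitor cells and one of the bile duct markers above (chr17:72121020-72126420), was at 131, 146 and 143 CPM with vehicle and 177 to 200 with extract, median 191. The 18 extract libraries lay in a narrow band above vehicle, with a log2 fold change of 0.45 ± 0.041 (SE), adjusted p = 1.96e-10. Of the other bile duct markers, CFTR had no count and KRT7 had at most 2 counts in a library, while SPP1 was tested and not called. NFAT5, the transcription factor of the response to high salt (chr16:69565094-69704666), was at 109, 98.0 and 109 CPM with vehicle and 133 to 164 with extract, median 150. It too separated in every library (0.51 ± 0.047, adjusted p = 1.96e-10). MBNL2, a splicing regulator, was at 40.3 to 44.3 CPM with vehicle and 53.1 to 66.2 with extract (0.48 ± 0.052).

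Of 20 genes of the cytosolic heat shock response tested, 11 were called higher and 1 lower, with a median log2 fold change of 0.131, against -0.000948 over all genes tested and a share of 8.38% called higher. HSPA1A, an inducible HSP70 chaperone (chr6:31815464-31817946), was at 64.3, 54.0 and 57.4 CPM with vehicle and 80.6 to 139 with extract, median 114. Its neighbour HSPA1B (chr6:31827735-31830255), which encodes nearly the same protein, was at 72.5, 69.9 and 60.4 CPM with vehicle and 93.0 to 153 with extract, median 112. Both separated in every library, with log2 fold changes of 0.92 ± 0.091 (SE), adjusted p = 1.45e-09, and 0.77 ± 0.079, adjusted p = 3.85e-09. The 2 genes are near-identical copies, so how reads were split between them is uncertain.

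By role, 4 of 5 HSP70 genes, 3 of 4 HSP40 co-chaperones and both regulators were called higher, and none of 3 small or mitochondrial chaperones was called. HSPA8, the constitutive HSP70, was at 1160, 1040 and 1010 CPM with vehicle and 1070 to 1610 with extract, median 1460 (0.42 ± 0.067). Here the groups overlapped through replicate 1 of Cinnamomi (1074) and of Astragali (1137), and the rest were at 1376 or more. BAG3, an HSP70 co-chaperone of selective autophagy, and DNAJB6, an HSP40, separated with smaller changes of 0.23 and 0.12. HSP90AB1, the constitutive HSP90, was the member called lower, at -0.09. HSF2, a heat shock factor that was not on the list and was chosen after its values were seen, was at 24.3, 23.3 and 24.0 CPM with vehicle and 15.4 to 21 with extract, median 18.5. It was lower in every extract library (-0.39 ± 0.047, adjusted p = 8.76e-08).

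The promoters of the HSP70 pair are shown because these genes had the largest changes of the list. They are the 250 bases before the RefSeq start site (GRCh38.p14), both on the plus strand, at chr6:31815293-31815542 and chr6:31827488-31827737, and 235 of 249 aligned bases are identical (94.4%). Capitals mark the heat shock motif, GAANNTTC, which reads the same on both strands.
HSPA1A: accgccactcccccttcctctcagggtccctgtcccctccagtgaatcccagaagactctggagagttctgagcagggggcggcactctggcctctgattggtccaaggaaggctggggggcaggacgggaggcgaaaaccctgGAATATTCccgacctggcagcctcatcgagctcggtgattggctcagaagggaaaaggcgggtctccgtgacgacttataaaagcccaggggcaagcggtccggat
HSPA1B: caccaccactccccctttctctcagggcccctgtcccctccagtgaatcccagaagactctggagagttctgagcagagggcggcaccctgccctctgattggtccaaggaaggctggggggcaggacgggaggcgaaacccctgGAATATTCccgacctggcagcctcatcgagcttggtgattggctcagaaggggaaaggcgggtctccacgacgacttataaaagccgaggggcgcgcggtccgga
The same letters occurred in 11 of the 18 list members that matched a promoter and in 6 of the 10 matched members called higher. Over all 11096 genes tested that matched a promoter, 5.84% held them. The list was drawn up from known members of the response, so this share describes the list and not the change.

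In the endoplasmic reticulum stress response, 11 of 23 members were called higher and none lower, against 8.38% of all genes called higher, with a median log2 fold change of 0.129, and 17 of 18 extract libraries had a list median above vehicle. All 4 degradation factors were called higher, with 6 of 15 chaperones and 1 of 4 regulators. HERPUD1, which helps to clear misfolded proteins from the membrane (chr16:56932048-56944863), was at 78.0, 67.1 and 63.1 CPM with vehicle and 80.2 to 99.0 with extract, median 93.6. The lowest extract library lay just above vehicle replicate 1 (0.41 ± 0.055, adjusted p = 9.48e-07). DNAJB9, a chaperone of the same compartment, was at 16.1, 14.3 and 12.7 CPM with vehicle and 17.6 to 24.2 with extract, median 21.4 (0.56 ± 0.085). EDEM1, which marks misfolded glycoproteins for removal, was at 38.8 to 41.3 CPM and 43.2 to 50.9, and CALR, the lectin chaperone calreticulin, at 1054 to 1100 and 1126 to 1298. These 4 genes separated, and each passed the test in all 6 extracts.

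The HERPUD1 promoter carries a well-known element of this response and is shown for that reason. It is on the plus strand at chr16:56931892-56932141, and capitals mark the endoplasmic reticulum stress element of the ERSE-II type.
HERPUD1: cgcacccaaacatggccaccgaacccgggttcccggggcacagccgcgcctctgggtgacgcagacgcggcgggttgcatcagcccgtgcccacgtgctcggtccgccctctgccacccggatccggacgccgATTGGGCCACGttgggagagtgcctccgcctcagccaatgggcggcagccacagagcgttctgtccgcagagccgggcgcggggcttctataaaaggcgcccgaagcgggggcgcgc
This element or the classical ERSE, on either strand, occurred in 10 of 22 list members with a matched promoter. It occurred in 4 of the 11 called higher and in 0.270% of all promoters searched. The promoter of DNAJB9 held neither. As with heat shock, the list was drawn up from known members, so these shares describe the list and not the change.

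In the list of low-oxygen response and glycolysis genes, 24 of 41 members were called higher (58.5%, against 8.38% of all genes) and none lower, with a median of 0.170. The low-oxygen targets had 15 of 20 called, median 0.295, and the glycolytic enzymes and regulators 9 of 21, median 0.107. Few members separated library by library: only EGLN1, an oxygen sensor that marks hypoxia-inducible factors for degradation (0.32 ± 0.065), and ALDOC, an aldolase (0.22 ± 0.053). VEGFA, the endothelial growth factor, was at 106, 119 and 110 CPM with vehicle and 115 to 147 with extract, median 135, so that some extract libraries fell within the vehicle range (0.25 ± 0.048). LOX, a collagen cross-linking enzyme (0.38 ± 0.067), overlapped with vehicle only in Sagunja-tang replicate 3. HK2, a hexokinase (0.35 ± 0.064), overlapped only in Astragali replicate 1. The list median was above vehicle in 18 of 18 libraries and differed in size: 0.272 in Cnidii, 0.250 in Rehmanniae, 0.210 in Cinnamomi, 0.192 in Astragali, 0.0611 in Sagunja-tang and 0.137 in Samul-tang.

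PFKFB3, which makes the activator of phosphofructokinase and was chosen after its values were seen, varied widely. It was at 2.41, 2.88 and 2.32 CPM with vehicle and 2.29 to 12.3 with extract, median 6.01. The libraries of set 5 were at 8.95 to 12.3 CPM, those of set 6 at 2.29 to 7.30 and those of set 7 at 3.38 to 5.38. The lowest of set 6 were replicate 1 of Astragali and replicate 1 of Cinnamomi, on 58 and 90 counts. The mean log2 fold change was 1.22 ± 0.252 (SE), adjusted p = 0.000546, and the 6 extracts differed, adjusted p = 0.000665.

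The 14 genes with the strongest shared decreases changed less than the 14 above, with log2 fold changes of -0.39 to -0.76, and 10 of them passed the test in each of the 6 extracts. CCDC144NL, a gene of unclear function with related copies elsewhere in the genome, so that its read assignment is uncertain (chr17:20836447-20896140), was at 6.20, 6.85 and 6.34 CPM with vehicle. It was at 3.20 to 4.75 CPM with extract, median 3.73, far below vehicle (-0.76 ± 0.083, adjusted p = 1.04e-08). PPARGC1B, a coactivator of mitochondrial biogenesis (chr5:149730298-149855022), was at 6.66, 7.15 and 6.59 CPM with vehicle and 3.62 to 5.77 with extract, median 4.88 (-0.53 ± 0.097). SLC2A4, the insulin-responsive glucose transporter GLUT4 (chr17:7281667-7288257), was at 14.1, 13.8 and 14.3 CPM with vehicle and 9.06 to 13.0 with extract, median 9.87 (-0.46 ± 0.079). AMOTL2, a regulator of the YAP pathway, was at 19.7 to 22.4 CPM and 14.8 to 18.3 (-0.39 ± 0.052). GSTA2, UQCRQ, PLD6, GPCPD1, ISM1, FAM86B1 and the antisense RNAs ST7-AS1, TMPO-AS1 and RAB35-AS1 were also among the 14. Counts of antisense RNAs are uncertain here, because the kit keeps strand but the strand setting of the counting is not given.

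**Figure D2:**
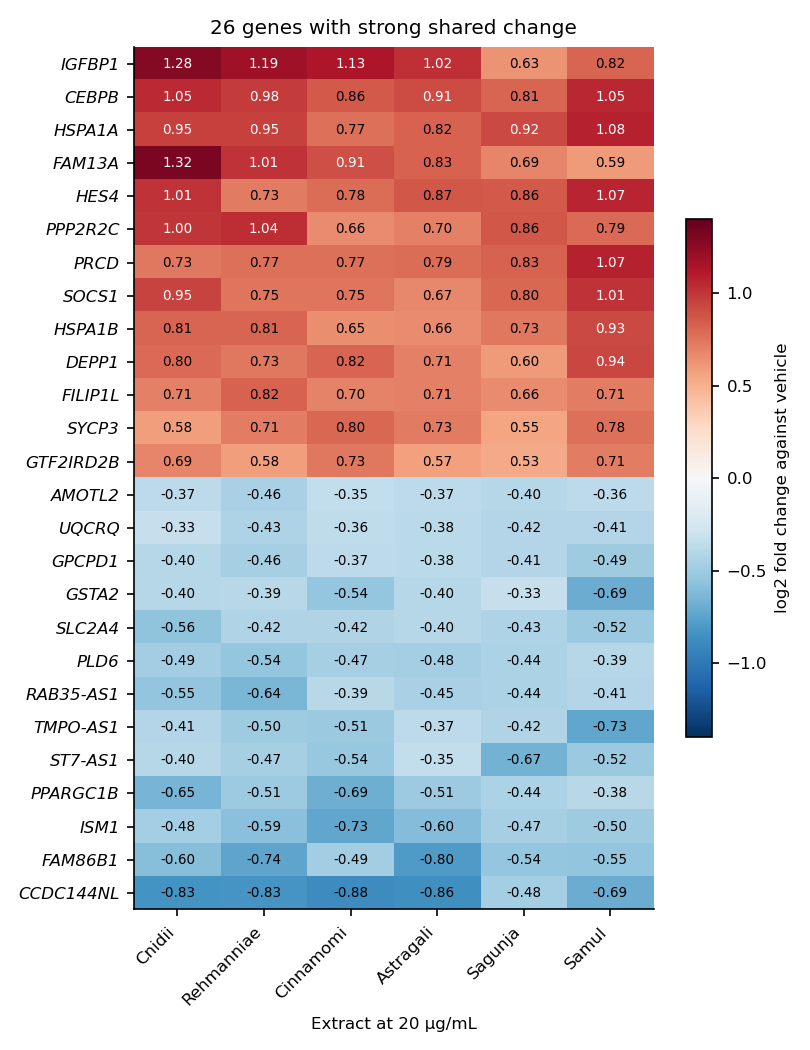
Log2 fold change against vehicle (colour and printed value) for each of the 6 extracts at 20 µg/mL (columns) in 13 of the genes with the strongest shared increase and 13 of those with the strongest shared decrease (rows). The 3 vehicle libraries are common to all columns. IGFBP1 ran from 0.63 to 1.28 and CCDC144NL from -0.88 to -0.48.

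Of 28 DNA replication genes tested, 19 were called lower and none higher, with a median log2 fold change of -0.158 and a list median below vehicle in all 18 libraries, against 8.57% of all genes called lower. PCNA, the sliding clamp of the DNA polymerases (chr20:5114953-5126626), was at 346, 307 and 298 CPM with vehicle and 229 to 276 with extract, median 259. No extract library reached the vehicle range (-0.31 ± 0.043, adjusted p = 1.4e-06). ORC1, a subunit of the complex that marks origins, was at 30.0, 30.6 and 30.7 CPM with vehicle and 22.2 to 26.9 with extract, median 24.8 (-0.30 ± 0.048). CDC6, which loads the helicase, was at 111, 110 and 112 CPM and 85.1 to 104, median 96.9 (-0.21 ± 0.034). RRM1, the large subunit of ribonucleotide reductase, was at 110 to 119 CPM and 87.5 to 105 (-0.21 ± 0.034). The helicase subunits MCM6 (-0.24 ± 0.043) and MCM4 (-0.16), the primase genes PRIM1 (-0.31) and POLA2 (-0.29), GINS2, the clamp loader gene RFC4 and the cyclin gene CCNE2 separated as well, 11 members in all. No member was called among the 6 extracts, which for 28 genes is near the 1.56% of all genes called and does not set the list apart. DTL, which directs PCNA-linked degradation and was chosen after its values were seen, was at 64.8, 64.5 and 65.0 CPM with vehicle and 45.8 to 55.9 with extract, median 51.0 (-0.35 ± 0.042). Mitosis genes had 7 of 28 called lower and none higher, median -0.057, and their list median too lay below vehicle in all 18 libraries. Of these genes CCNB1, a mitotic cyclin, separated (-0.18 ± 0.035).

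Promoters of MCM6 and CDC6 are shown as replication genes with an E2F-type motif, MCM6 on the minus strand at chr2:135876444-135876693 and CDC6 on the plus strand at chr17:40287629-40287878. Capitals mark TTTGGCGC, TTTGGCGG, TTTCCCGC, TTTCGCGC or TTTGCCGC on either strand, with overlapping matches joined.
MCM6: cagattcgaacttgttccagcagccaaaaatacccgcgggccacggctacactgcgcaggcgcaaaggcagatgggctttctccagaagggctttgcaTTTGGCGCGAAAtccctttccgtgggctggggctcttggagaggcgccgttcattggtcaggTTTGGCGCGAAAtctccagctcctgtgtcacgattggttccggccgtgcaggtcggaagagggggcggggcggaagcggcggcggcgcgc
CDC6: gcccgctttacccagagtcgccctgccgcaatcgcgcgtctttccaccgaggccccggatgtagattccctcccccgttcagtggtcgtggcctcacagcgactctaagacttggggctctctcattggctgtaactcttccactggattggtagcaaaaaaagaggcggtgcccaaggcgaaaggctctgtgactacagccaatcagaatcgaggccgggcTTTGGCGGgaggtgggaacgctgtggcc
Any of these motifs occurred in 14 of 24 list members with a matched promoter, in 9 of the 16 called lower and in 6.39% of all promoters searched. The promoter of ORC1 held none. This list too was drawn up from known members, so the shares describe the list and not the change.

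Among the NRF2 list, 7 of 26 members were called lower (26.9%) and 1 higher (3.85%), with a median of -0.017. Over all genes tested, 8.57% were called lower and 8.38% higher. The thioredoxin and quinone enzymes were called lower in 5 of 5 cases: SRXN1, TXNRD1, PRDX1, TXN and NQO1. SRXN1, which repairs peroxiredoxins, was at 103, 108 and 98.4 CPM with vehicle and 82.8 to 97.1 with extract, median 85.8 (-0.25 ± 0.042). TXNRD1, thioredoxin reductase, was at 174, 179 and 176 CPM and 134 to 165, median 148 (-0.25 ± 0.046), and neither gene overlapped with vehicle. SLC7A11, the cystine transporter, went the other way, at 29.6, 28.4 and 29.6 CPM with vehicle and 34.4 to 43.7 with extract, median 39.9 (0.43 ± 0.056).

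Detoxifying enzymes of the second phase fell in 4 of 10 cases, and of 7 first-phase genes none was called. GSTA1 (chr6:52791664-52803910) and GSTA2 (chr6:52750089-52763569), neighbouring glutathione transferases of liver, were lower in every extract library. GSTA1 was at 38.1, 37.9 and 34.7 CPM with vehicle and 18.01 to 31.2 with extract, median 26.9 (-0.46 ± 0.062, adjusted p = 1.01e-06). GSTA2 was at 16.8, 15.9 and 14.7 CPM with vehicle and 8.82 to 13.3 with extract, median 11.7 (-0.46 ± 0.067). As close paralogs they may share reads. The whole list of xenobiotic metabolism had 6 of 23 lower (26.1%) and 1 higher (4.35%), median -0.055, beside 8.57% and 8.38% of all genes.

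Nuclear genes of the respiratory chain had 6 of 48 members lower (12.5%) and 2 higher (4.17%), median -0.066. Together these were 16.7% of the list, near the 16.9% of all genes called. Of 10 ATP synthase genes 4 were lower, and ATP5F1A, ATP5F1B and ATP5F1C, subunits of its catalytic head, separated at -0.21, -0.19 and -0.21. UQCRQ, a small subunit of complex III (chr5:132866560-132868031), was at 66.4, 66.3 and 60.1 CPM with vehicle and 43.3 to 56.8 with extract, median 48.03 (-0.39 ± 0.077), and COX7C, of complex IV, also separated (-0.30 ± 0.078). Cytosolic ribosomal protein genes had 12 of 69 lower (17.4%, beside 8.57% of all genes) and none higher, median -0.090. Of these 12, RPS6 alone separated, and the other members called overlapped with vehicle in at least 1 library. Nucleolar genes had 5 of 24 lower and 1 higher, and proteasome and autophagy genes 4 of 25 lower, all 4 of them proteasome subunits. The mitochondrial genome had 1 of 15 called higher (6.67%, beside 8.38% of all genes), with a median of 0.132. The gene called was the ribosomal RNA MT-RNR1 (0.33 ± 0.078), whose call was lost without vehicle replicate 2.

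Liver transcription factors moved in both directions, 5 of 17 higher (29.4%) and 2 lower (11.8%). The shares over all genes, which also apply to the lists that follow, were 8.38% higher and 8.57% lower. PROX1 (0.24) and FOXA2 (0.26), factors of liver development, separated upward, FOXA1 (-0.17) separated downward, and TBX3, a repressor, rose by 0.15. In fatty acid oxidation, CPT1A, which admits fatty acids to mitochondria, was at 43.3, 46.4 and 44.5 CPM with vehicle and 47.2 to 61.0 with extract, median 56.5 (0.31 ± 0.053), within a list with 4 of 16 higher and 3 lower. In cholesterol synthesis 3 of 25 were higher and 4 lower, and among the latter HMGCS1 (-0.19 ± 0.043) and the squalene synthase gene FDFT1 (-0.17 ± 0.029) had non-overlapping levels. HMGCS1 and TBX3 lost their calls in limma with extract as random block. Gluconeogenesis and FOXO genes had 3 of 14 higher and 4 lower, with SLC37A4, the glucose 6-phosphate transporter (-0.27), and TXNIP, a thioredoxin inhibitor (-0.21), among those lower in every library. The ATF4 list had 3 of 26 higher and 2 lower, together 19.2%, near the 16.9% of all genes called. Beside CEBPB its amino acid transporter SLC38A2, at 531 to 627 CPM with vehicle and 644 to 757 with extract, separated (0.28 ± 0.040).

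Acute phase and complement genes had 2 of 17 higher and 5 lower. The inhibitor chain gene ITIH3 rose by 0.27 ± 0.041 (SE), with no overlap. SOCS3, the feedback inhibitor of IL-6 signalling, fell, but on few counts: 0.765, 0.562 and 0.652 CPM with vehicle against 0.218 to 0.532 with extract (-0.82 ± 0.224, adjusted p = 0.00769), and its call was lost without vehicle replicate 1. Of the YAP and cytoskeleton list 5 of 27 were lower and 1 higher, with ANKRD1, a YAP target, at -0.40 ± 0.074. Splicing factors and nuclear RNAs had 5 of 22 higher and 7 lower. Metallothioneins and zinc export (1 of 10 higher), bile acid genes (2 of 10 higher), interferon and NF-kB genes (2 of 19 higher, 3 lower), p53 targets (3 of 20 higher, 2 lower), iron handling (2 of 12 lower), clock genes (2 of 17 higher, 2 lower) and immediate early genes (5 of 25 higher, 3 lower) were counted beside 8.38% of all genes higher and 8.57% lower. The remaining lists were TGF-beta, BMP and Wnt genes (4 of 19 higher, 1 lower), fatty acid synthesis (2 of 20 higher, 4 lower), secreted liver proteins (2 of 26 higher, 4 lower), KRAB zinc fingers (1 of 57 higher, 6 lower), replication-dependent histones (1 of 14 higher) and hepatocyte markers (1 of 10 lower).

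**Figure D3:**
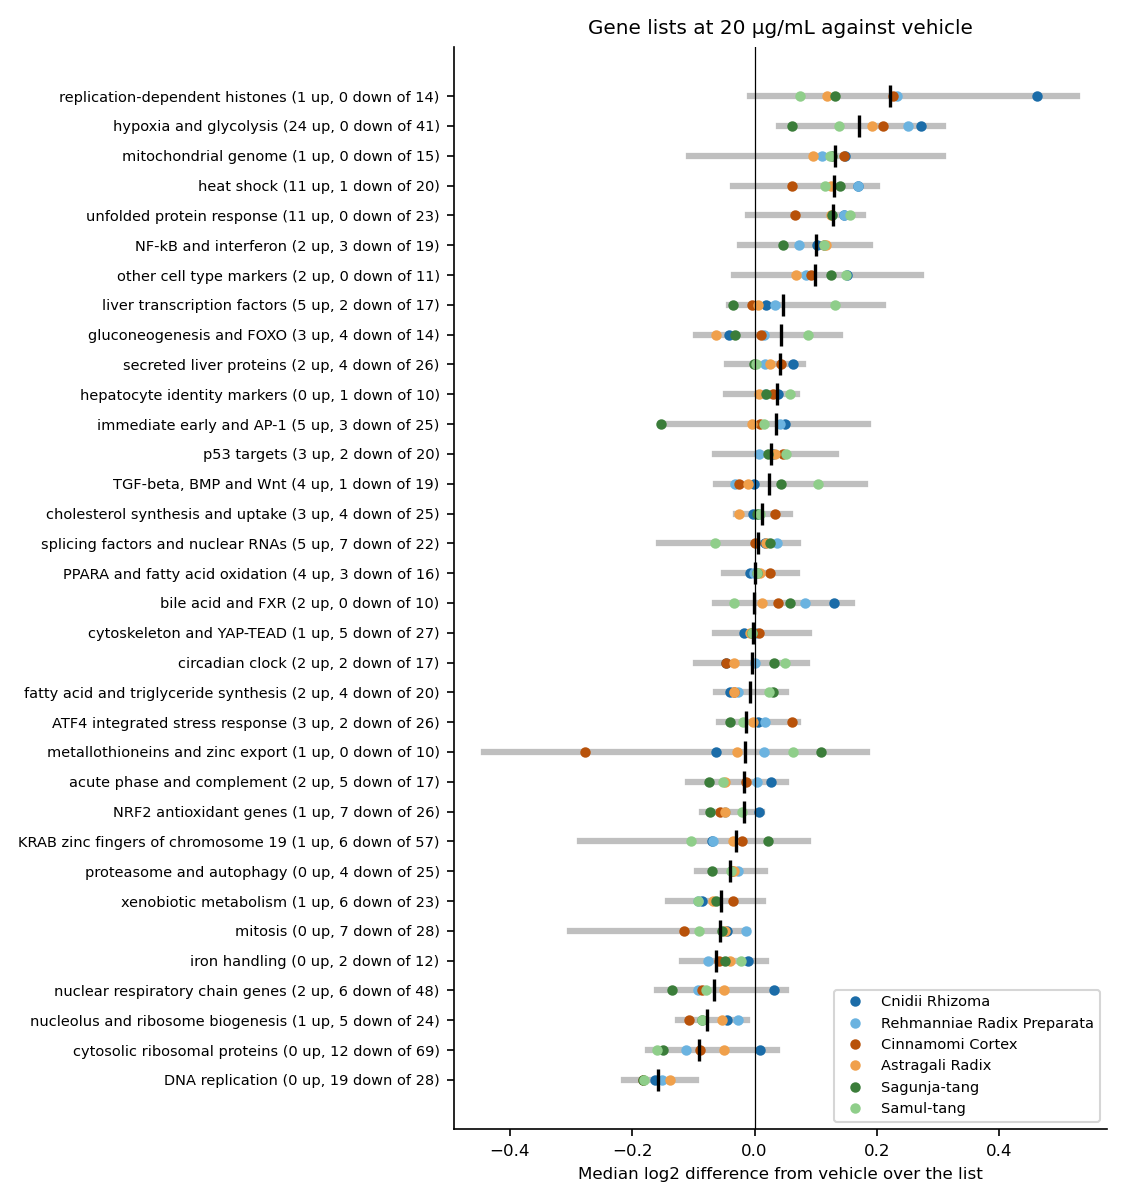
Median log2 difference from vehicle over each of 34 gene lists (rows), with a black bar for the mean of the 6 extracts, coloured points for the single extracts and a grey line for the range over the 18 libraries at 20 µg/mL. Row labels give the members called higher and lower. DNA replication lay below 0 in 18 of 18 libraries, at a median of -0.158, and hypoxia and glycolysis above 0 in 18 of 18, at 0.170.

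Some genes called in the mean of the 6 extracts depended on the extract. MALAT1, an abundant nuclear long non-coding RNA (chr11:65497688-65506516), was at 394, 388 and 422 CPM with vehicle. The libraries of set 5 were at 569 to 664 CPM and those of set 6 at 562 to 666, all above vehicle. Those of set 7 were at 339 to 490. Of these, Samul-tang replicate 2, at 339, lay below vehicle, and the rest, at 465 to 490, lay above it. The share of counts in all long non-coding RNAs was 1.05 to 1.14% with vehicle, 1.18 to 1.31% in set 5, 1.24 to 1.29% in set 6 and 0.948 to 1.04% in set 7, and its part in the MALAT1 values was not tested. GSTA1 fell least in Cnidii (-0.28) and most in Samul-tang (-0.77). COL27A1, a fibrillar collagen, was at 150, 155 and 164 CPM with vehicle and 169 to 216 with extract, median 177, with log2 fold changes of 0.15 to 0.16 in the 4 single herbs, 0.33 in Sagunja-tang and 0.38 in Samul-tang.

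The higher doses gave a comparison that shares no library with the one above. The mean difference between 500 and 100 µg/mL over the 5 extracts other than Cinnamomi Cortex, which was left out because earlier results showed that it changed most genes at 500, was called for 513 genes (3.17%). Among the 766 genes that separated at 20 µg/mL it was called for 62 (8.09%). In 51 its direction was opposite to that of the change at 20 µg/mL, and in 11 it was the same. These counts compare directions only, so a gene of the 51 may have moved past its vehicle level. IGFBP1 fell by 0.38 ± 0.079 (SE) on the log2 scale from 100 to 500, adjusted p = 0.0014. The 15 libraries of these extracts were at 129 to 282 CPM at 100 µg/mL and 86.5 to 207 at 500, with medians of 223 and 171, so the doses overlapped. DEPP1 fell by 0.36 ± 0.063, adjusted p = 0.0001, from a median of 13.6 CPM at 100 to 10.5 at 500, which lies in its vehicle range. Cinnamomi Cortex, left out of this test, went the other way in both genes, IGFBP1 from 426 to 642 CPM at 100 to 3247 to 3838 at 500 and DEPP1 from 23.7 to 32.3 CPM to 94.4 to 115. SRXN1, TXNRD1 and GSTA2 rose between these doses by 0.21, 0.18 and 0.26, to medians of 105, 180 and 15.7 CPM. Further from vehicle went HMGCS1 (-0.16), FDFT1 (-0.13) and ANKRD1 (-0.22). For HSPA1A, CEBPB, PCNA and SOX9 the dose difference was between -0.04 and 0.05 and was not called. In the Palmul-tang library at 20 µg/mL, IGFBP1 was at 268 CPM, HSPA1A at 120, CEBPB at 40.0, SOX9 at 190 and PCNA at 237.

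**Figure D4:**
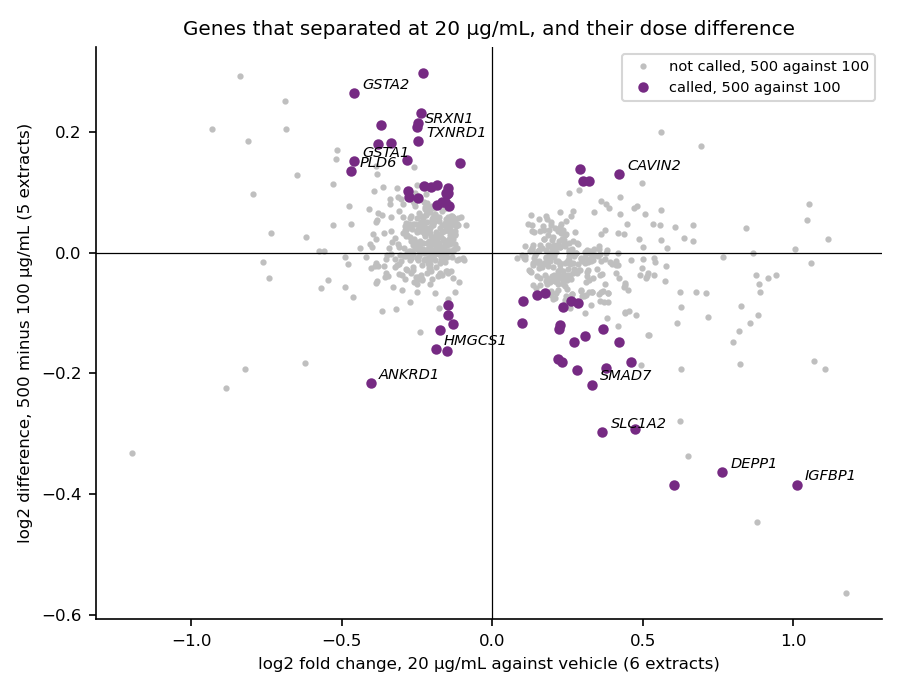
Log2 fold change at 20 µg/mL against vehicle (x, mean of 6 extracts) and log2 difference between 500 and 100 µg/mL (y, mean of 5 extracts) for 756 of the 766 genes that separated, the other 10 lying beyond 1.2 on the x axis. Purple points, from the 62 genes called between 500 and 100, lie mostly on the side of y opposite to x, as IGFBP1 and DEPP1 (right, below 0) and GSTA2 (left, above 0) show.

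Transcript length and base composition moved with the direction of the change. Among protein-coding genes, the longest annotated transcript had a median of 4802.5 bases for the genes that separated upward and 3181.5 for those that separated downward, against 3598.5 over all tested. Its GC content had medians of 51.0%, 44.8% and 48.7%. In the shortest quartile of genes 1.15% separated upward and 3.12% downward, and in the longest quartile 4.40% and 1.93%. In the quartile with the highest GC content 98 of 3208 genes separated upward (3.05%) and 11 downward (0.343%). The part of length and GC content in the gene values above was not tested.

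**Figure D5:**
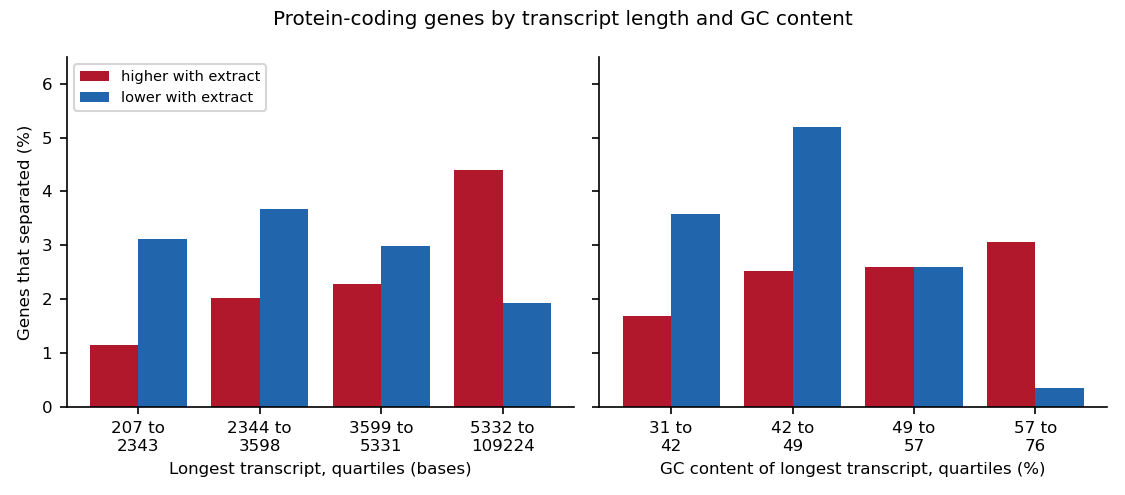
Share of protein-coding genes that separated upward (red) and downward (blue), in percent from 0, in quartiles of the longest transcript's length (left) and of its GC content (right). The upward share rose from 1.15% in the shortest to 4.40% in the longest quartile, and the downward share was 0.343% in the quartile of highest GC content.

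Of the 766 genes, 56 had a mean under 2 CPM, and the largest folds were among these; the following were chosen after their values were seen. C4orf48, which encodes a small secreted peptide, had 6, 5 and 15 counts with vehicle and 26 to 74 with extract, median 47. CCDC200 had 11, 9 and 8 counts with vehicle and 14 to 45 with extract, and LRRC26, a subunit of potassium channels, had 2, 0 and 0 against 5 to 34. TICAM2, an adaptor of Toll-like receptors, and the readthrough gene TMED7-TICAM2 overlap on the minus strand of chromosome 5 (chr5:115578650-115602479 and chr5:115578642-115626161). TICAM2 had 15, 15 and 8 counts with vehicle and none in 17 of 18 extract libraries, and TMED7-TICAM2 had none with vehicle and 11 to 28 in those 17. Samul-tang replicate 2, the library that stood apart, had 16 counts of TICAM2 and 2 of TMED7-TICAM2. Through that library TICAM2 overlapped with vehicle, so it is not among the 766 genes. How the counting divided reads between these overlapping genes is not given, so the values may not show which transcript was present.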

How the data were processed

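RNA-seq libraries of HepG2 cells were used as deposited by the authors, in expected counts per gene. STAR 2.7.3a, RSEM 1.3.3, Trim Galore 0.6.5, FastQC 0.11.9 and GRCh38 are listed, with no roles, in the submitters' processing notes. The annotation release and the strand setting are not given in the sources used here. Of 270 columns, 210 name no sample of this series and were not used. Counts were rounded, genes filtered with filterByExpr and libraries scaled by TMM. A single edgeR 4.0.16 quasi-likelihood fit over 57 libraries (19 groups, 38 residual degrees of freedom) gave the contrast of the mean of 6 extract groups at 20 µg/mL with vehicle, with Benjamini-Hochberg adjustment over all genes and a threshold of 0.05. Every adjusted p for a gene is from this fit, SE is the log2 fold change divided by the root of F, and CPM are scaled by TMM, except for the cell type markers. Library measures were compared by exact permutation tests (1330 assignments, SciPy 1.17.1). Palmul-tang, with 1 library a dose, was outside the fit. Gene coordinates are those of GENCODE 29 (GRCh38). The named genes are, among separating genes with a symbol and at least 2 CPM, the 14 in each direction with the largest smallest-of-6 change, the 4 members of a list with the smallest adjusted p if called, and 6 separating genes that differed among extracts. Of these genes 3 are not reported here. List members beyond these 4, where named, were chosen after their values were seen. The extracts, gene lists and rules were chosen with earlier results of these data known. The fit was tested on simulated data. Alternatives were another normalization, no filter, a replicate block, the 21 libraries alone, each library or set left out, DESeq2 1.42.0, limma 3.58.1 with extract as random block and a fold minimum of 1.2. Leaving out libraries for the library measures was added after seeing the data.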

Additional observations from a re-analysis of the deposited data

Results flagged for a closer look

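For 10 of the named genes, the log2 fold change at 20 µg/mL differed among the 6 extracts by edgeR's quasi-likelihood F test, which does not use the vehicle libraries. MALAT1 (adjusted p = 3.9e-06) ran from 0.08 in Samul-tang to 0.62 in Rehmanniae and Astragali, COL27A1 (8.73e-05) from 0.15 in Cinnamomi and Astragali to 0.38 in Samul-tang, and PFKFB3 (0.000665) from 0.49 in Sagunja-tang to 2.00 in Cnidii. ASNS, asparagine synthetase (0.000907), was at 0.06 in Cinnamomi and -0.26 in Sagunja-tang. GSTA1 (0.00692) ran from -0.28 in Cnidii to -0.77 in Samul-tang. TRAM2 (0.0165) was at 0.14 in Cnidii and Astragali and 0.33 in Samul-tang. RPIA (0.0276) was at -0.13 in Cnidii, Cinnamomi and Astragali and -0.42 in Samul-tang. DUS4L (0.0321) was at -0.15 in Cinnamomi and -0.56 in Samul-tang. TBX3 (0.0433) ran from 0.07 in Astragali to 0.26 in Samul-tang, and FAM13A (0.0472) from 0.59 in Samul-tang to 1.32 in Cnidii. In 8 of the 10 Samul-tang was at 1 end of the range, and its replicate 2 stood apart from the other extract libraries. Without that library 133 genes differed among the extracts, against 253 with it.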

How the results depend on the processing

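None of the 150 named genes reversed under any alternative, and the 28 genes with the strongest shared changes passed the test under all of them except the fold minimum of 1.2, which 15 of the 28 and 25 of the 150 passed. Other losses of a call among the named genes came with leaving out vehicle replicate 1 (32 genes), 2 (24) or 3 (6), with limma and extract as random block (27), without set 7 (11), with the 21 libraries alone (8), without a filter (4) and without set 5 (1), and with leaving out any single extract library in none. With that fold minimum, 59 genes were called and 48 separated. With limma, 1239 were called. DESeq2 called 2666 genes and 742 separated. Whether the replicate numbers pair the libraries is not given, and low correlations cannot decide it. Same-numbered vehicle and extract libraries had correlations of 0.0826, 0.0717 and -0.0136, and differently numbered ones -0.0914 to 0.0254. With a replicate block 2870 genes were called and 767 separated. Without a filter on low counts 1298 genes differed among extracts and 845 among sets. With the 21 libraries alone, 645 genes were called in Cnidii, 760 in Rehmanniae, 676 in Cinnamomi and 324 in Astragali, 134 in each of the 6 extracts, 57 among extracts and 238 among sets. With Cinnamomi Cortex included, 4172 genes differed between 500 and 100 µg/mL. Leaving out 1 library at a time gave 1326 to 3140 genes called and 770 to 1243 separating, 498 to 1374 in Cnidii, 575 to 1449 in Rehmanniae, 423 to 1543 in Cinnamomi, 247 to 862 in Astragali, 964 to 2259 in Sagunja-tang, 1927 to 3616 in Samul-tang, 106 to 306 separating and called in each, 133 to 575 among extracts and 258 to 652 among sets. Of 34 list medians 5 moved, each on leaving out a vehicle library, the histone median from 0.222 to 0.0290 without replicate 3. The 3 vehicle libraries limit every comparison with vehicle.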
